A study of Mus musculus with 5 samples.

Results

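The nuclei described here were the excitatory neurons found among single nuclei isolated from dissected central amygdala of mice. A nucleus was taken as excitatory if it held at least 2 UMIs (unique molecular identifiers, each counting 1 captured RNA molecule) of the glutamate transporter genes Slc17a7 and Slc17a6 together, and more of these than of the GABA synthesis genes Gad1 and Gad2 together. By this rule 76 of 7161 nuclei were excitatory, or 1.06% (exact Clopper-Pearson 95% interval 0.837 to 1.33%, for counting error only), and 5062 nuclei, or 70.7%, were Gad nuclei by the mirror-image rule. All had between 500 and 8000 detected genes and less than 0.8% of their UMIs from mitochondrial genes.

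Neurons that release glutamate load it into synaptic vesicles with transporters of the Slc17 family. Slc17a7 (VGLUT1) is the usual transporter of cortex, hippocampus and the basolateral amygdala, and Slc17a6 (VGLUT2) that of thalamus, hypothalamus and parts of the medial amygdala. Neurons of the central amygdala itself release GABA, which is made by the enzymes of Gad1 and Gad2, so glutamatergic nuclei in such a preparation are not of its typical neurons. The libraries carry no position, and where in the dissected tissue these nuclei lay was not measured.

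There were 5 libraries, 3 from mice that were fed and 2 from mice that were fasted, each made from pooled male and female mice. Fed replicates 1 and 2 and both fasted replicates were from wild-type C57BL/6NRj mice of 8 weeks, and fasting lasted 20 h in fasted replicate 1 and 21 h in fasted replicate 2. Fed replicate 3 was from Htr2a-Cre transgenic mice of 12 weeks whose amygdala had been injected with a virus encoding Cre-dependent mCherry, so that genotype, age and virus cannot be told apart from the library. The nuclei kept numbered 1151, 1130 and 1438 in fed replicates 1 to 3 and 1708 and 1734 in fasted replicates 1 and 2. Across the same order the deposited matrices held 17321997, 21286947, 23820193, 29823990 and 53146326 UMIs.

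Excitatory nuclei were rare in every library. Fed replicates 1, 2 and 3 held 5, 20 and 13 of them, and fasted replicates 1 and 2 held 13 and 25. As a share of nuclei kept this was 0.434% (exact 95% interval 0.141 to 1.01), 1.77% (1.08 to 2.72) and 0.904% (0.482 to 1.54) in the fed libraries, and 0.761% (0.406 to 1.30) and 1.44% (0.935 to 2.12) in the fasted ones. The shares of the fed and the fasted libraries overlapped. The mean was 1.10% ± 0.481 (SD, n = 2) in fasted and 1.04% ± 0.677 (SD, n = 3) in fed libraries, and the difference of 0.0653 percentage points gave p = 1.00 in a two-sided exact permutation test over libraries, in which 0.200 is the smallest p that 3 against 2 can give.

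**Figure D1:**
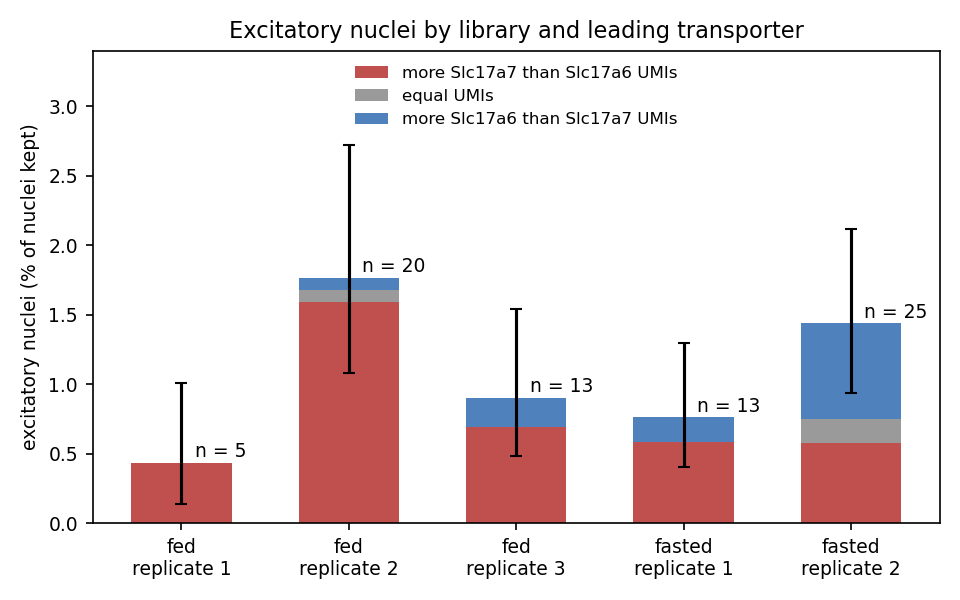
Share of excitatory nuclei (percent of nuclei kept, y axis) in each of the 5 libraries, stacked by the transporter with more UMIs, with exact 95% intervals of the whole share. Slc17a7-led nuclei occurred in all 5 libraries, and 12 of the 19 Slc17a6-led nuclei were in fasted replicate 2.

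The values that chose the nuclei are given as a description. Over the 76 nuclei there were 322 UMIs of Slc17a7, 94 of Slc17a6, 12 of Gad1 and 20 of Gad2. Of these nuclei 50 had no Gad UMI, and none had more than 2. Slc17a7 had more UMIs than Slc17a6 in 53 nuclei, called Slc17a7-led here, and fewer in 19, called Slc17a6-led, while 4 nuclei had equal numbers. The third vesicular transporter, Slc17a8, was at 0 UMIs in the 1719297 UMIs of the excitatory nuclei.

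Just inside the rule were 15 nuclei with exactly 2 transporter UMIs, and just outside it 25 nuclei with 1 transporter UMI and no Gad UMI. The secreted ligand gene Tafa1 was at 870.4 CPM (UMIs per 1000000 of the summed UMIs of a class) in the former and at 1008.4 CPM in the latter. The 61 nuclei with at least 3 transporter UMIs had 2587.6 CPM of Tafa1, and Gad nuclei 132.8 CPM. Meis2, a transcription factor of subpallial neurons, was at 423.7 CPM in the 15 nuclei just inside, 598.6 CPM in the 25 just outside, 209.0 CPM in the 61 nuclei further inside and 1152.6 CPM in Gad nuclei. The levels of Tafa1 and Meis2 on both sides of the threshold thus lay between those of the deeper excitatory nuclei and those of Gad nuclei. The oligodendrocyte marker Mbp did not lie in between. It was at 36.8 CPM in the 15 nuclei and 534.3 CPM in the 25, against 68.6 CPM in the 61 and 103.0 CPM in Gad nuclei. The 15 nuclei just inside were also shallower, with a median of 11187 UMIs against 24469 in the 61.

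Excitatory nuclei had more UMIs than Gad nuclei in every library. Their median UMIs were 11093, 28887.5 and 18989 in fed replicates 1 to 3 and 10920 and 24009 in fasted replicates 1 and 2, against 9485, 18447.5, 14998.5, 7445 and 18204 in Gad nuclei. The rule asked for a fixed number of UMIs, which a deeper nucleus reaches more easily. With nuclei thinned to 4000 UMIs, and the 174, 242, 65, 234 and 164 shallower nuclei of the 5 libraries left out, the shares were 0%, 0.563% and 0.437% in the fed libraries and 0.339% and 0.573% in the fasted ones, again overlapping.

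Tafa1, which encodes a secreted protein of the TAFA family, was the 1 given marker of these nuclei that the rule did not use. It lies on chr6:96090088-96635542 of GRCm39, plus strand, and had been named as a marker from earlier results on these libraries, so its test is not independent support. In excitatory nuclei Tafa1 was at 3275.8, 3286.0 and 1725.8 CPM in fed replicates 1 to 3 and at 2162.7 and 1667.7 CPM in fasted replicates 1 and 2. In Gad nuclei it was at 129.1, 144.9, 133.7, 97.2 and 136.7 CPM in the same order. The lowest excitatory value was far above the highest Gad value, and the groups did not overlap. Over the 4 libraries with at least 10 excitatory nuclei Tafa1 was 17.4-fold higher (log2 fold change 4.12, SE 0.19, adjusted p = 1.21e-08, edgeR quasi-likelihood test).

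Per nucleus, 53 of 76 excitatory nuclei (69.7%) reached 1000 CPM of Tafa1, compared with 155 of 5062 Gad nuclei (3.06%). The Tafa1 signal followed the leading transporter. At least 5 Tafa1 UMIs were found in 52 of 53 Slc17a7-led nuclei but in 4 of 19 Slc17a6-led nuclei. In Slc17a6-led nuclei Tafa1 was at 0 CPM in the single nucleus of fed replicate 2 and at 318.6, 139.0 and 407.0 CPM in fed replicate 3 and fasted replicates 1 and 2. Slc17a7-led nuclei ranged from 2176.8 to 3466.5 CPM over the 5 libraries, without overlap with the Slc17a6-led values. Against Gad nuclei, Slc17a6-led nuclei alone had a log2 fold change of 1.16 for Tafa1 that did not pass the threshold (adjusted p = 0.0686).

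**Figure D2:**
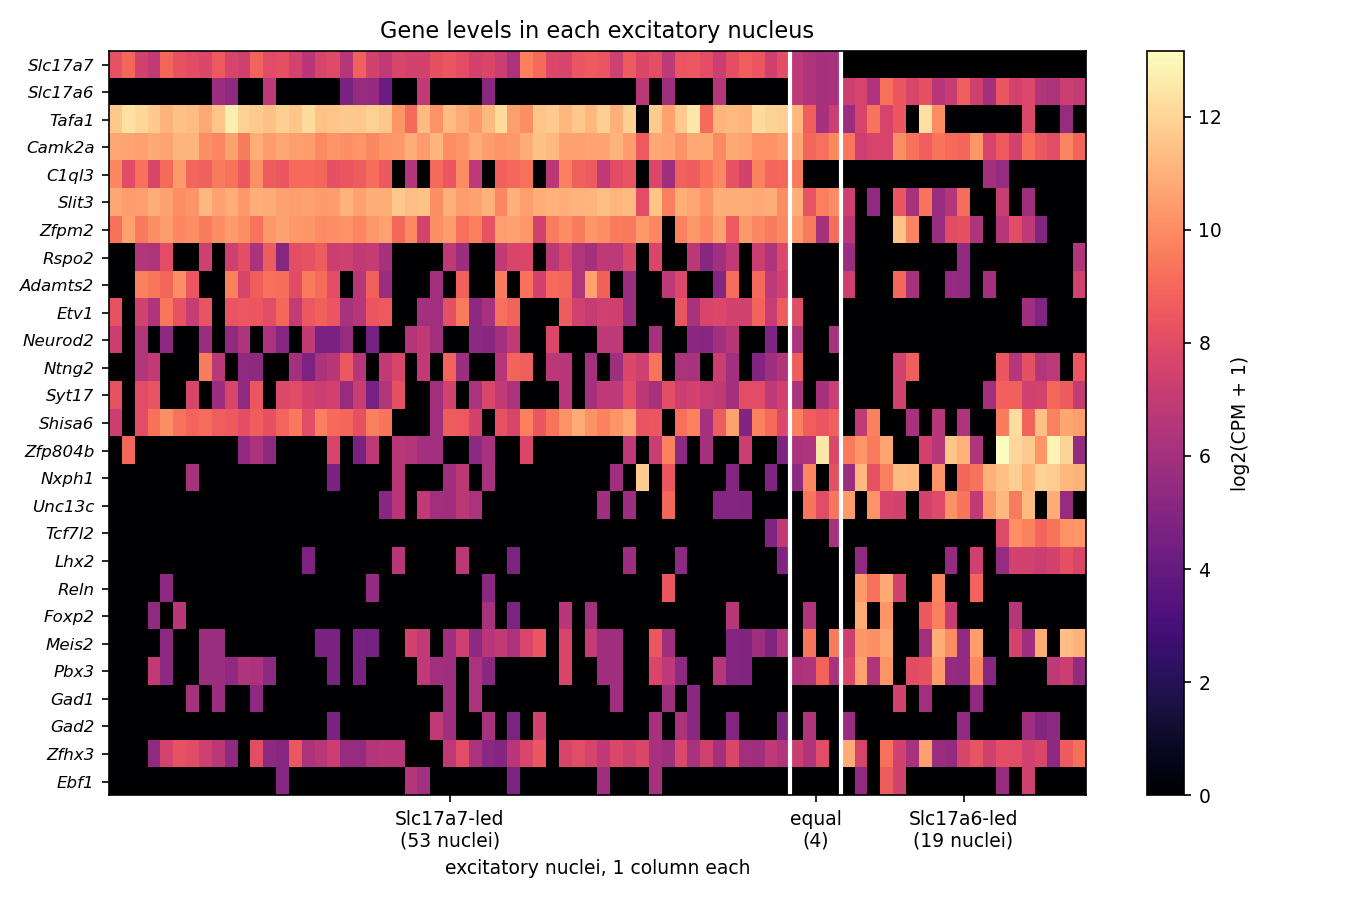
Level of marker genes (rows) in each of the 76 excitatory nuclei (columns), as log2(CPM + 1), with the nuclei grouped by leading transporter. At least 5 UMIs of Tafa1 are seen in 52 of the 53 Slc17a7-led nuclei and in 4 of the 19 Slc17a6-led ones, and at least 5 UMIs of Tcf7l2 are seen in 7 of the latter and in none of the former.

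Which other genes went with the transporters was tested on UMIs summed per library and class, with the library as a block and the 4 genes of the rule left out. Of 11537 genes tested, 694 (6.02%) were higher and 693 (6.01%) lower in excitatory than in Gad nuclei at an adjusted p of 0.05. The contrast is the one the rule was built on, so these counts describe what accompanied glutamatergic identity in these libraries. The excitatory sum mixes both transporter groups in proportions that differ between libraries.

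Transcription factors of the pallium, which gives rise to glutamatergic neurons of cortex and basolateral amygdala, were divided. Of 14 tested on that list 7 were higher, 2 lower and 5 did not pass, with a median log2 fold change of 1.75 against -0.06 over all genes tested. The proneural factor Neurod2 was at 39.5, 30.9, 45.7, 40.0 and 16.8 CPM in excitatory nuclei of fed replicates 1 to 3 and fasted replicates 1 and 2, and at most 0.774 CPM in Gad nuclei of the 5 libraries. Its log2 fold change was 5.93 (SE 0.52). Fezf2, a factor of deep-layer cortical projection neurons, was at 15.5 CPM in excitatory and 0.139 CPM in Gad nuclei (means of 4 libraries), and Etv1, an ETS factor of deep cortical layers, at 174.6 and 18.4 CPM, though Etv1 was at -1.93 on the log2 scale in Slc17a6-led nuclei alone (adjusted p = 0.568, edgeR). Mef2c, an activity-regulated factor, had a log2 fold change of 1.80 and Zbtb18 one of 3.09. Bcl11a and Cux1 were lower, by -2.11 and -2.31 on the log2 scale. Tbr1, a factor of cortical projection neurons, was seen as 14 UMIs in all excitatory nuclei.

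Subpallial transcription factors, which specify GABAergic neurons, went the other way. Of 17 tested 13 were lower and none higher, with a median log2 fold change of -3.38 that became -2.89 with the 2 genes at 0 UMIs set to the bound that 3 UMIs allow. Dlx6, a homeobox factor of GABAergic neurons, was at 0 UMIs in excitatory nuclei and at 19.5 CPM in Gad nuclei, at least 11.1-fold lower. Ebf1 on chr11:44508138-44898918 was at 0, 1.63, 14.1, 26.7 and 8.42 CPM in excitatory nuclei, library by library, and between 218.3 and 291.4 CPM in Gad nuclei. Its levels did not overlap, and the log2 fold change was -4.89 (SE 0.33, adjusted p = 2.29e-07, edgeR). Isl1 (-4.73), Six3 (-4.05), Zfhx3 (-2.89), Rarb (-2.83) and Meis2 (-2.41) were lower as well.

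Genes of GABA handling were mostly lower. Of 4 tested genes for GABA synthesis and release 3 were lower, among them the vesicular transporter Slc32a1 (-2.18) and the degrading enzyme Abat (-1.83). None of the 9 tested genes for glutamate synthesis and uptake passed the threshold, and their median log2 fold change was 0.09. In Slc17a7-led nuclei alone 1 of these 9, Slc1a1 (0.79), was higher. There 2 were lower, Glud1 (-1.15) and Slc38a1 (-0.75), beside 8.36% of all genes higher and 11.9% lower. Of 14 neuropeptide and growth factor genes tested, 7 were lower and 2 higher. Penk, the enkephalin precursor, was between 6.50 and 26.3 CPM in excitatory nuclei and between 111.3 and 163.1 CPM in Gad nuclei, and Sst had a log2 fold change of -3.58. Grp and Cck, peptides also made by pallial neurons, were higher (6.83 and 3.59), on 18 and 34 UMIs, and neither passed the filter on low counts in the fit of either transporter group alone.

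Genes that mark inhibitory types of the central amygdala and striatum were mostly lower as well. Of 20 tested, 13 were lower and 1 higher, with a median log2 fold change of -2.36 (-1.86 with the gene at 0 UMIs at its bound). In Slc17a6-led nuclei alone 3 of 20 were lower, 2 higher and 15 did not pass. Prkcd, the kinase whose neurons form a major population of the lateral central amygdala, was at 0, 0, 7.03, 6.67 and 8.42 CPM in excitatory nuclei of the 5 libraries and at 63.7 to 106.5 CPM in Gad nuclei. Drd2 (-3.30) and the G protein subunit Gng7 (-3.05) were lower. The exception on this list was Il1rapl2, a synaptic adhesion protein and marker of 1 inhibitory type. It was at 1001.7 to 1526.1 CPM in excitatory nuclei and at 252.4 to 464.6 CPM in Gad nuclei (log2 fold change 1.93). The paper marks that inhibitory type by Tafa1 as well, which was also higher here (log2 fold change 4.12). Single Gad nuclei reached up to 4726.6 CPM of Tafa1.

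The 15 genes with the largest increases by the rule for named genes were led by Mndal (log2 fold change 7.74) and Ptprc (6.94). Mndal belongs to a family of near-identical interferon-inducible genes, so reads may be split among copies. Ptprc encodes CD45, known from immune cells, and was at 65.8, 152.8, 24.6, 66.7 and 21.9 CPM in excitatory nuclei and at most 0.627 CPM in Gad nuclei. The 10 listed microglial and vascular markers summed to 29.7 CPM in excitatory and 30.8 CPM in Gad nuclei. Of these, Cldn5, Flt1 and Vtn were at 0 UMIs in excitatory nuclei. Their part in the Ptprc level was not tested.

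C1ql3, a secreted synaptic organizer of the C1q family on chr2:13006580-13016617, was at 447.3, 490.8 and 253.1 CPM in excitatory nuclei of the fed libraries and at 240.3 and 237.5 CPM in those of the fasted ones. Gad nuclei had 3.04 to 5.64 CPM, so the classes lay far apart (log2 fold change 6.06, SE 0.25, adjusted p = 5.35e-09, edgeR). Rspo2, which encodes a Wnt pathway agonist and marks basolateral amygdala neurons, was at 131.6, 167.4, 56.2, 93.4 and 37.1 CPM, against at most 4.12 CPM in Gad nuclei (4.88). Next came Ccdc3 (4.74), the sulfotransferase Chst8 (4.66), Frem1 (4.58), the Nogo receptor Rtn4r (4.51), the synaptotagmin Syt17 (4.49), Arhgap15 (4.45), the angiopoietin Angpt1 (4.32), the netrin-G Ntng2 (4.30), the neuropeptide S receptor Npsr1 (4.22), the potassium channel subunit Kcng1 (4.19) and Dkk3 (4.16).

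On the side of Gad nuclei the 15 largest differences by the rule for named genes were, after Ebf1, the decarboxylase Ddc (-4.11), Spata13 (-4.05), Prkcd (-3.87), the synaptic vesicle protein Sv2c (-3.68), the receptor Gpr83 (-3.57), Dock10 (-3.42), Stk31 (-3.38), the dopamine receptor Drd2 (-3.30), Arhgap6 (-3.28), the kinase Prkch (-3.25), the cadherin Dchs2 (-3.25), the protease Pcsk6 (-3.23), the collagen Col6a1 (-3.22) and Cntnap3 (-3.05). That rule leaves out larger differences of less abundant genes, such as Isl1. Of the markers listed for basolateral amygdala, claustrum or endopiriform nucleus, and piriform or deep cortex, 9 of 17 tested were higher and 2 lower, with a median log2 fold change of 0.71. The lower ones were Gnb4 (-1.21) and Cdh13 (-1.18). The higher ones included Rspo2, Dkk3, Ntng2, Adamts2 (3.89), Zfpm2 (3.26) and the kappa opioid receptor gene Oprk1 (1.79). In Slc17a7-led nuclei alone 8 of 17 were higher and 7 lower, beside 8.36% and 11.9% of all genes. Beside Gnb4 and Cdh13, the lower ones there were Foxp2 (-4.14), Reln (-2.81), Calb1 (-2.56), Tle4 (-1.15) and Synpr (-0.94). In Slc17a6-led nuclei alone 4 were higher and none lower, beside 0.840% and 1.10%.

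Synaptic and channel genes were divided, and their counts stand beside 6.02% of all genes higher and 6.01% lower. Camk2a, the kinase subunit typical of excitatory forebrain neurons, was at 1670.8, 1287.1, 1184.5, 1435.1 and 973.7 CPM in excitatory nuclei and at 477.0 to 621.4 CPM in Gad nuclei (log2 fold change 1.18, SE 0.14). This held for Slc17a7-led nuclei (1.45) and not for Slc17a6-led nuclei, where the values against Gad nuclei were -0.61 for Camk2a, -0.81 for Grin2a and -0.01 for Gabbr2, none past the threshold. Of 22 calcium/calmodulin kinase and postsynaptic density genes tested 3 were higher and 4 lower. Of 24 glutamate receptor genes 5 were higher, among them the NMDA receptor subunit Grin2a (1.10), and 5 lower, among them the kainate receptor subunits Grik1 (-2.42) and Grik4 (-1.97). Of 14 GABA receptor genes the GABA-B subunit Gabbr2 (1.62) was the only one higher, and 5 were lower, including Gabrg1 (-2.05).

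Among 29 Tafa ligands and synaptic organizers 9 were higher, including Lrrc4c (1.56) and Ntng1 (1.44), and 3 lower, including Nrxn3 (-1.35). Among 30 potassium, HCN and calcium channel genes 9 were higher, including the GIRK channel gene Kcnj6 (1.65) and the M-current gene Kcnq3 (1.08), and 4 lower, including Kcnc2 (-1.63), a channel of fast-spiking neurons. In Slc17a6-led nuclei alone Lrrc4c (-0.19), Kcnq3 (-0.48) and Kcnc2 (0.11) had the opposite sign, without passing the threshold. None of 75 ribosomal protein genes and 1 of 84 respiratory chain genes passed the threshold, in the lower direction for the latter. Of 15 immediate-early genes 1 was higher and 0 lower, beside 6.02% and 6.01% of all genes. In Slc17a7-led nuclei alone 2 of 13 tested were higher and 4 lower, beside 8.36% and 11.9% of all genes. In Slc17a6-led nuclei alone 0 of 15 passed.

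Markers of glia were also measured in these nuclei. The 8 astrocyte markers summed to 805.6 CPM in excitatory and 576.6 CPM in Gad nuclei, with Gpc5 the most abundant, and Gfap was at 0 UMIs in excitatory nuclei. Of the 6 tested in the excitatory nuclei together none was higher and 1 lower. The sum was 597.1 CPM in Slc17a7-led nuclei, where 2 of 5 tested were higher and 1 lower, and 1567.0 CPM in Slc17a6-led nuclei, where 1 of 6, Gpc5, was higher (log2 fold change 1.28). In the latter it was 4861.7 CPM in the single nucleus of fed replicate 2 and 608.2, 973.0 and 1576.1 CPM in fed replicate 3 and fasted replicates 1 and 2. The part of astrocyte RNA in the Slc17a6-led profile was not tested. The 10 oligodendrocyte and precursor markers summed to 140.8 CPM in excitatory and 245.0 CPM in Gad nuclei, led by Mbp, and 2 of 8 tested were lower.

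The excitatory nuclei were not of 1 kind. Of the 53 Slc17a7-led nuclei 5, 18, 10, 10 and 10 came from fed replicates 1 to 3 and fasted replicates 1 and 2, and of the 19 Slc17a6-led nuclei 0, 1, 3, 3 and 12. Slc17a6-led nuclei thus made up 0%, 5.00%, 23.1%, 23.1% and 48.0% of the excitatory nuclei of each library. Both groups were compared within the 3 libraries with at least 3 nuclei of each, with the library as a block. Of 3186 genes tested 194 (6.09%) were higher and 174 (5.46%) lower in Slc17a7-led nuclei. Without fasted replicate 2, which held most Slc17a6-led nuclei, 40 genes passed.

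Against Gad nuclei, 947 genes (8.36%) were higher and 1346 (11.9%) lower in Slc17a7-led nuclei, of 11330 tested over the 5 libraries. The same comparison for Slc17a6-led nuclei gave 95 higher (0.840%) and 125 lower (1.10%) of 11315 tested, over the 3 libraries with at least 3 of them.

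The 8 largest differences towards Slc17a7-led nuclei by the rule for named genes were led by C1ql3. C1ql3 was at 280.7 to 500.5 CPM in their 5 libraries. In the 4 libraries with Slc17a6-led nuclei it was at 0 CPM in 3 and at 11.1 CPM in fasted replicate 2, with a log2 fold change of 5.68 (SE 0.61) between the groups. Next came Ankrd33b (5.23), Etv1 (5.13), the mannosidase Man1a (4.69), the scaffold Tanc1 (4.66), Npsr1 (4.59), the axon guidance ligand Slit3 (4.29) and the glycosyltransferase Galnt9 (4.13). Slit3 on chr11:35011789-35602786 was at 1657.7, 1666.0, 1856.5, 1973.0 and 1824.9 CPM in Slc17a7-led nuclei, and at 0, 57.9, 92.7 and 122.1 CPM in Slc17a6-led nuclei of the last 4 libraries. Gad nuclei lay in between, at 525.0 to 762.0 CPM, and no library's value of one group reached those of another.

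Several genes of Slc17a7-led nuclei were not seen at all in the other group. Mndal, Ptprc, Frem1, Neurod2, Neurod6 and Zbtb18 had 0 UMIs among the 384172 UMIs of Slc17a6-led nuclei, a depth at which 3 UMIs amount to 7.81 CPM. Taking that as the limit, Ptprc was at least 12.5-fold, Mndal at least 9.49-fold and Neurod2 at least 4.85-fold higher in Slc17a7-led nuclei. A UMI of Neurod2 or Neurod6 was found in 34 of 53 Slc17a7-led nuclei and in 0 of 19 Slc17a6-led ones, which allows a share of nuclei with such a UMI of up to 15.8% and sets no limit on nuclei expressing the genes at lower levels. Rspo2, picked for this count after its values were seen, had a UMI in 37 of 53 and 3 of 19.

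Slc17a6-led nuclei had higher levels of Zfp804b (log2 fold change -5.25 for Slc17a7-led against Slc17a6-led nuclei, SE 0.41, adjusted p = 8.88e-09, edgeR), the extracellular glycoprotein gene Reln (-4.77), the transcription factor gene Foxp2 (-4.44), Nhs (-4.38), the vesicle priming gene Unc13c (-4.36), Tmem132c (-4.28), the neurexin ligand Nxph1 (-4.24) and Ankrd55 (-4.16). Zfp804b on chr5:6819010-7394756 was at 43.0, 926.8, 2641.1 and 2586.1 CPM in Slc17a6-led nuclei of fed replicates 2 and 3 and fasted replicates 1 and 2. Slc17a7-led nuclei had 23.4 to 88.4 CPM, and Gad nuclei 439.2 to 643.4 CPM. The single nucleus of fed replicate 2 fell within the Slc17a7-led range, and the other libraries lay above both classes. Nxph1 was at 1013.7 to 2687.4 CPM in Slc17a6-led nuclei and at 0 to 28.3 CPM in Slc17a7-led nuclei of 4 libraries. The fifth, fasted replicate 1, had 506.9 CPM, of which nearly all lay in 1 nucleus (3493.8 CPM of Nxph1, and no Tafa1), while its other nuclei had at most 55.5 CPM.

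**Figure D3:**
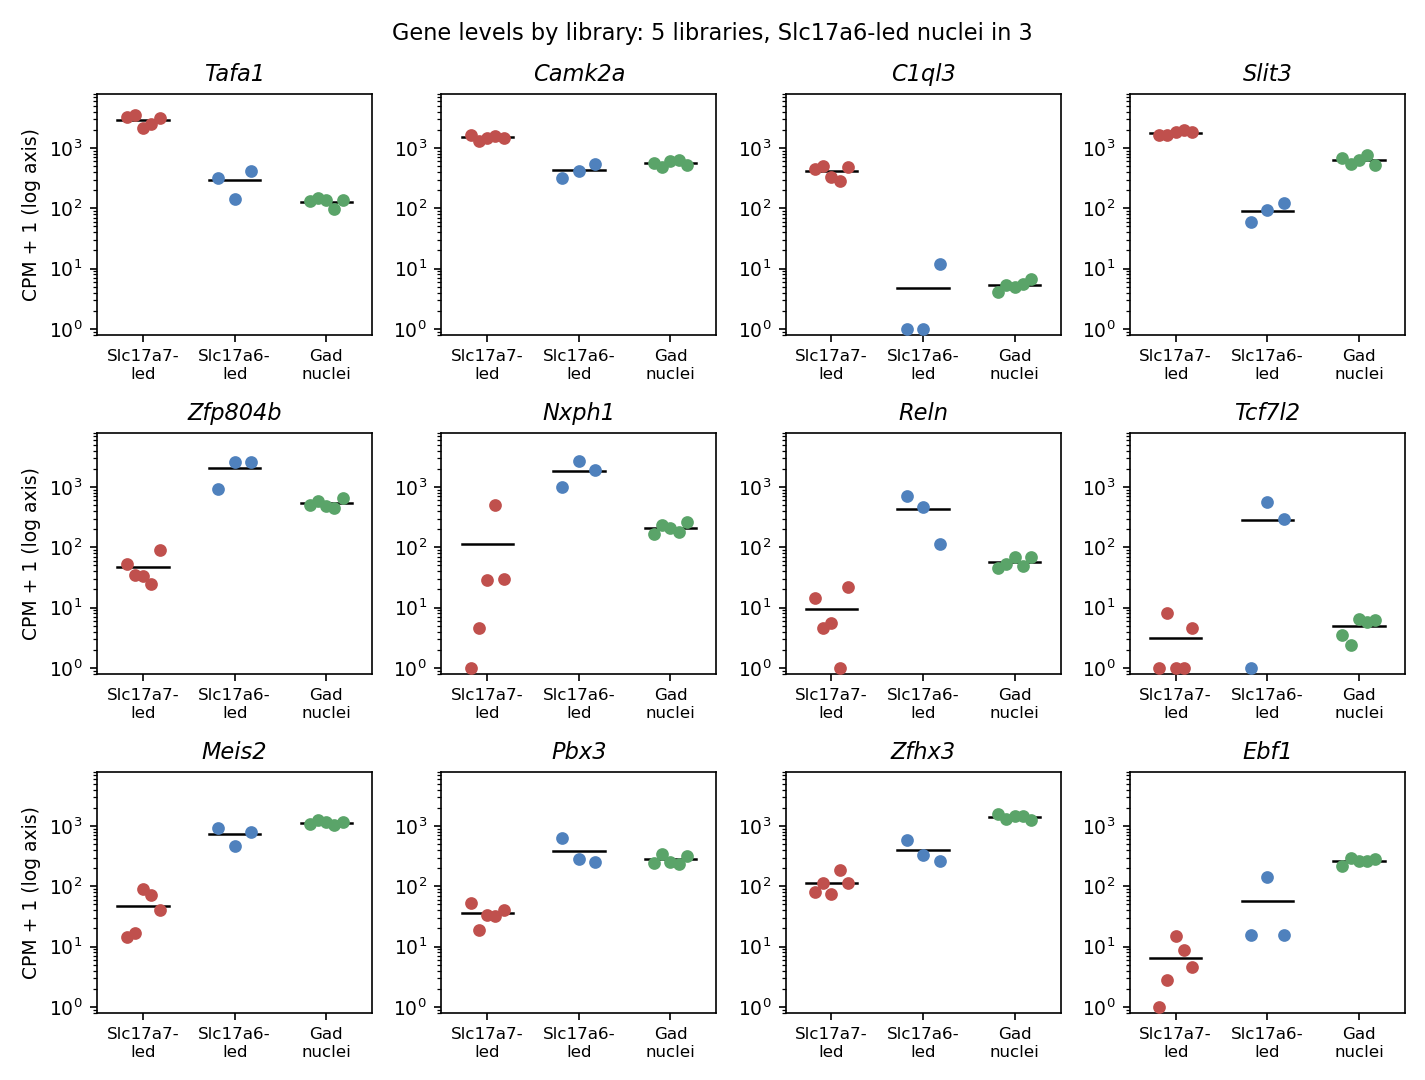
Levels of single genes (CPM + 1, log axis) in Slc17a7-led, Slc17a6-led and Gad nuclei, with 1 point per library and a line at the mean. Slc17a6-led nuclei are shown for the 3 libraries with at least 3 of them, and Slc17a7-led and Gad nuclei for all 5. Tafa1 is highest in Slc17a7-led nuclei, at 2176.8 to 3466.5 CPM, and Meis2 lowest there, at 13.2 to 88.2 CPM.

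Summed over nuclei, some genes of GABAergic neurons did not differ detectably between Slc17a6-led and Gad nuclei. Meis2 on chr2:115693062-115896341 was at 2108.2, 912.3, 463.3 and 802.8 CPM in Slc17a6-led nuclei of the last 4 libraries and at 1022.1 to 1259.0 CPM in Gad nuclei (log2 fold change -0.78, SE 0.35, adjusted p = 0.383, edgeR). At least 5 Meis2 UMIs were present in 9 of the 19 nuclei, 5 had none, and the median over nuclei was 183.2 CPM. In Slc17a7-led nuclei Meis2 was at 13.2 to 88.2 CPM, and it was lower by -3.54 in Slc17a7-led than in Slc17a6-led nuclei. Pbx3 (0.27), Kcnc2 (0.11) and Grik4 (-0.45) did not pass the threshold in Slc17a6-led against Gad nuclei. That fit called 0.840% of all genes higher and 1.10% lower, so a missed threshold there does not show equal levels. Zfhx3 (-2.05), Ebf1 (-3.53), Rarb (-2.09), Penk (-2.50) and Prkcd (-3.21) were lower in Slc17a6-led than in Gad nuclei.

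Of the 17 subpallial factors tested, 15 were lower and 1 higher in Slc17a7-led than in Gad nuclei, and 3 were lower in Slc17a6-led than in Gad nuclei. Of 12 pallial factors tested in Slc17a7-led nuclei 8 were higher and 2 lower. Of 12 tested in Slc17a6-led nuclei, which were partly other genes, 1 was higher, Lhx2, which was not tested in Slc17a7-led nuclei. Between the transporter groups themselves 4 of 5 subpallial factors tested were lower in Slc17a7-led nuclei. Of 5 pallial factors, 2 were higher there and 1 lower.

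By the rule for named genes, which asks for 1 sign in every library, the genes furthest above Gad nuclei in the Slc17a6-led group were Lhx2 (6.65), a LIM homeobox factor, Chst8 (4.98), Tmem163 (4.79), the sialyltransferase St8sia2 (4.00), Angpt1 (3.58), the AMPA receptor auxiliary subunit Shisa6 (3.44), Psg16 (3.16) and Rasa4 (3.06). Tcf7l2 on chr19:55730188-55922091, a Wnt effector typical of thalamic neurons, was at 1290.7, 0, 556.0 and 288.6 CPM in Slc17a6-led nuclei of fed replicates 2 and 3 and fasted replicates 1 and 2. It was at most 7.07 CPM in Slc17a7-led and 5.53 CPM in Gad nuclei. Fed replicate 3 was the exception, with none, and against Gad nuclei the log2 fold change was 5.22 (SE 0.47, adjusted p = 6.55e-25, edgeR).

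Those 19 nuclei were themselves mixed. At least 5 UMIs of Tcf7l2 were present in 7 nuclei, 1 from fed replicate 2, 1 from fasted replicate 1 and 5 from fasted replicate 2, and all 7 also had a UMI of Lhx2. At least 5 UMIs of Reln on chr5:22089452-22549700 were present in 5 other nuclei, from fed replicate 3 and both fasted replicates, and all 5 held at least 5 UMIs of Meis2. No nucleus reached 5 UMIs of both Tcf7l2 and Reln, 3 reached 5 of both Tcf7l2 and Meis2, and 6 reached 5 of none of these 3 genes. Lhx5, a factor of hypothalamic and medial amygdala neurons, had a UMI in 5 nuclei, of which 3 were among those with Reln. Otp had a UMI in 2 and Sim1 in 1. Of the 53 Slc17a7-led nuclei 51 had under 5 UMIs of Tcf7l2, Reln and Meis2. These genes were picked for the counts after their values were seen, and groups of this size got no test.

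How fasting moved gene levels in excitatory nuclei could be examined only weakly, since fed replicate 1 held 5 such nuclei and was left out of the main comparison. With fed replicates 2 and 3 against both fasted replicates, 0 of 6140 genes (0%) passed an adjusted p of 0.05 in edgeR's quasi-likelihood test, and 256 had an unadjusted p under 0.05. DESeq2 called 9 and edgeR's likelihood ratio test 49. With replicate number as a block and all 5 libraries, 85 of 5009 genes passed, 78 of them higher in fasted libraries. The leading ones included Unc13c (6.93) and Zfp804b (4.72), genes that were higher in Slc17a6-led nuclei, whose number differed between libraries. In this class feeding state and the mix of both transporter groups cannot be told apart.

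Within Slc17a7-led nuclei of the same 4 libraries 10 of 4211 genes (0.237%) were called, all higher in fasted libraries. Of these, 9 were mitochondrially encoded. Nuclei had been kept only with less than 0.8% mitochondrial UMIs, so these genes took part in the choice of nuclei and are given as a description, without a test. The remaining gene, the cystatin gene Cst3, had a log2 fold change of 3.23 (adjusted p = 0.0194, edgeR), with 15.9 and 13.9 CPM in fed replicates 2 and 3 and 62.4 and 212.2 CPM in fasted replicates 1 and 2. In Gad nuclei of these libraries Cst3 was at 29.8, 62.7, 113.9 and 128.1 CPM. Cst3 is also abundant in microglia and astrocytes. The 10 microglial and vascular markers summed to 17.7, 4.64, 7.80 and 116.7 CPM in the Slc17a7-led nuclei of these libraries, highest in the library with the most Cst3, with Cldn5, Flt1 and Vtn at 0 UMIs, and the 8 astrocyte markers to 721.6, 459.5, 530.3 and 512.8 CPM. Their part in the Cst3 level was not tested. In Slc17a7-led nuclei mt-Co1 was at 171.0, 74.3 and 55.7 CPM in the fed and at 499.1 and 512.8 CPM in the fasted libraries, without overlap. In Gad nuclei it was at 223.3, 192.8 and 133.3 CPM in the fed and at 437.8 and 323.7 CPM in the fasted libraries, again without overlap.

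Mitochondrial UMIs made up 0.126%, 0.0899% and 0.0601% of the UMIs of all excitatory nuclei in fed replicates 1 to 3 and 0.314% and 0.317% in fasted replicates 1 and 2. In Gad nuclei these shares were 0.162%, 0.147%, 0.103%, 0.309% and 0.225%. Both classes had higher values in the fasted libraries, so the difference was not confined to excitatory nuclei. RNA left from the cytoplasm also contributes such UMIs to a nuclear library, and its part was not tested. Ribosomal protein genes summed to 1223.5, 975.1, 1036.9, 2122.6 and 2715.5 CPM in excitatory and to 1704.6, 1069.5, 1250.0, 2504.1 and 2277.9 CPM in Gad nuclei. These sums were also higher in the fasted libraries of both classes, but 0 of the 40 genes tested in excitatory nuclei passed the threshold. In Slc17a7-led nuclei alone the sum was 1223.5, 992.2 and 1011.8 CPM in the fed and 2089.9 and 1517.2 CPM in the fasted libraries, without overlap. In Slc17a6-led nuclei it was 817.5 and 1115.0 CPM in fed replicates 2 and 3. There it was 2316.7 and 3855.1 CPM in fasted replicates 1 and 2. The part of the mix of both groups in the sums of all excitatory nuclei was not tested.

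**Figure D4:**
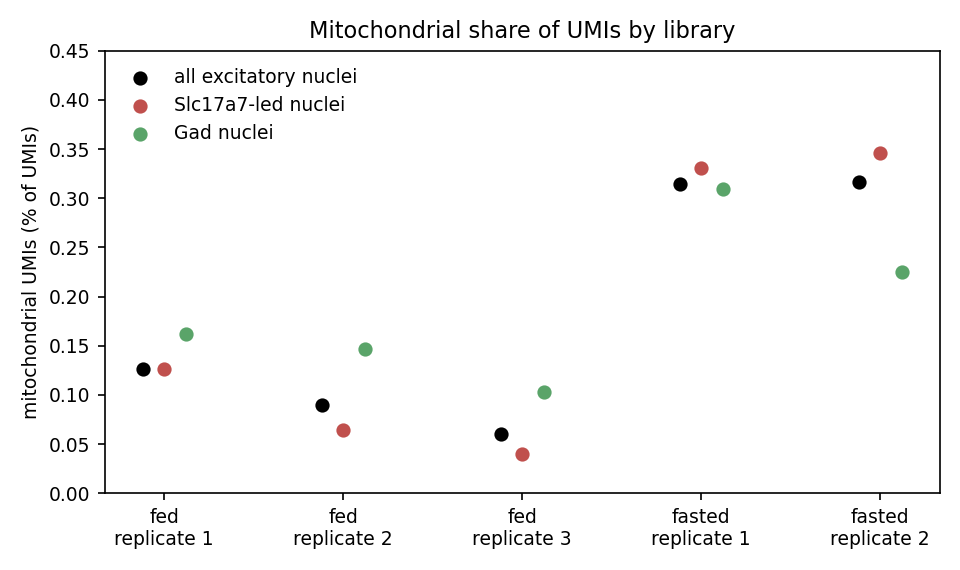
Mitochondrial share of UMIs (percent, y axis) in each library for all excitatory, Slc17a7-led and Gad nuclei, 1 point per library and class. The fasted libraries lie at 0.225% or above and the fed ones at 0.162% or below in every class. Nuclei were kept only with less than 0.8% mitochondrial UMIs, so the values are a description.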

How the data were processed

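Single nuclei from pooled central amygdala tissue were sequenced with a droplet assay in 5 libraries. The authors deposited raw UMI counts per gene and barcode from Cell Ranger, with intronic reads included and Cre and mCherry added to a GRCm39 reference (Ensembl 105). The matrix headers name Cell Ranger 5.0.0, whereas the submitters' processing notes name 2.1.1. Each matrix held 22532 genes.

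Nuclei with 500 to 8000 genes and less than 0.8% mitochondrial UMIs were kept, and classes were set by Slc17a7, Slc17a6, Gad1 and Gad2 UMIs. Members, gene lists and tests were chosen with earlier results of these data known. Scrublet (scanpy 1.11.5) marked 70 of 7161 nuclei as doublets (0.978%), 2 of them excitatory, and none was removed. The libraries shared 3 barcodes among nuclei kept, none of an excitatory nucleus.

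Counts were summed per library and class and tested with edgeR 4.0.16 in R 4.3.3 (TMM, filterByExpr, quasi-likelihood F test, Benjamini-Hochberg adjusted p of 0.05 over all genes tested), after the fit was tested on simulated data. The class comparison used 4 libraries with at least 10 excitatory nuclei, with the library as a block. The SE is the absolute log2 fold change divided by the square root of F. Libraries are the replicates. With the library as a block, p-values measure how far the difference between classes varied among these libraries. In the fit of fasted against fed they measure the spread between these libraries. Both also rest on counting error and on a dispersion estimated with information from all genes. The comparison of Slc17a7-led with Slc17a6-led nuclei was planned for libraries with at least 5 of each, which fewer than 2 libraries had, so at least 3 was used, a bound set after the numbers of nuclei were seen. CPM is the sum per 1000000 UMIs of that class and library. Exact intervals and limits from 3 UMIs cover counting error only. Shares were compared by an exact permutation test (scipy 1.17.1).

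Named genes were the 15 with the largest fold change in each direction (8 between transporter groups and for Slc17a6-led nuclei) among those called, of 1 sign in every library, with at least 50 CPM in the higher class. Members of the lists were added as examples. The study prepared fed and fasted datasets of the same number in shared batches, but the labels do not tie its numbers to these libraries. Same-numbered libraries here had deviations that correlated at 0.10 (replicate 1) and -0.00 (replicate 2) over 6140 genes. With the other fasted library the values were -0.10 (fed replicate 1) and 0.00 (fed replicate 2), equal in size and opposite in sign. With 2 fasted libraries such values are tied in pairs, so they cannot show whether a batch effect was present. The fit without a block on replicate number was the main one. Alternatives included DESeq2 1.42.0, no filter, thinned nuclei, other UMI bounds and leaving out each library. Gene positions are from GENCODE on GRCm39. Some genes are not reported here.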

Additional observations from a re-analysis of the deposited data

Results flagged for a closer look

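In fed replicate 3, the only library from mice given the mCherry virus, 47 UMIs of mCherry were counted in excitatory nuclei, a transcript outside the comparisons above. A UMI of mCherry was present in 4 of 13 excitatory nuclei (30.8%, exact 95% interval 9.09 to 61.4), in 382 of 1166 Gad nuclei (32.8%, 30.1 to 35.5) and in 50 of 259 nuclei of neither class (19.3%, 14.7 to 24.6). Median depths were 18989, 14998.5 and 7182 UMIs, and summed levels were 165.2, 153.7 and 85.5 CPM. No mCherry UMI was found in the other 4 libraries. The interval of the excitatory share includes those of both other classes, and the part of free RNA in these UMIs was not tested.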

How the results depend on the processing

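Between excitatory and Gad nuclei 1387 genes were called. Fits with other settings called 721 with nuclei thinned to equal depth, 2293 with Slc17a7-led and 220 with Slc17a6-led nuclei alone (both chosen after seeing the data), 1396 without the replicate block, and 1016 to 1297 with 1 library left out. Tafa1 ranged from 3.95 to 4.52 on the log2 scale over its other alternatives and was 1.16 in Slc17a6-led nuclei. With 1 transporter group alone, 28 named genes kept their sign but lost their call, such as Rspo2 (0.94) and Mef2c (0.16) in Slc17a6-led nuclei, where these genes changed sign: Npsr1 (-0.15), Camk2a (-0.61), Grin2a (-0.81), Gabbr2 (-0.01), Zbtb18 (-8.39, with 0 UMIs, a size that depends on the prior count), Etv1 (-1.93), Pbx3 (0.27), Kcnq3 (-0.48), Kcnc2 (0.11) and Lrrc4c (-0.19). Under all other alternatives 902 values of 71 genes stayed on their side of the threshold and 9 did not (Slc32a1, Isl1, Six3 and Dlx6 when thinned, Pbx3 and Cdh13 without fasted replicate 1, Cdh13 without the replicate block, Gnb4 with at least 4 UMIs or no UMI of the other class). Between transporter groups 368 genes became 186 with DESeq2 and 40 to 377 with 1 library left out, the lowest without fasted replicate 2, and 120 values of the 16 named genes stayed on their side of the threshold while 5 did not. For fasting, 0 genes became 49 with the likelihood ratio test, 9 with DESeq2, 78 without a filter, 11 with all 5 libraries, 10 in Slc17a7-led nuclei, 85 with both all 5 libraries and the replicate block, and 0 to 53 with 1 library left out, the highest without fed replicate 2. The share difference became -0.195 with at least 4 UMIs and -0.326 for Slc17a7-led nuclei, was 0.335 for Slc17a6-led nuclei (exact permutation p = 0.400), and was -0.275 to 0.432 with 1 library left out (-0.236 without fed replicate 1, -0.00072 without fed replicate 3, -0.275 without fasted replicate 2). The causes were not tested. All comparisons rest on few nuclei, with 5 to 25 excitatory ones per library. The fits of Slc17a6-led nuclei rest on 3, 3 and 12 of them in fed replicate 3 and fasted replicates 1 and 2.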

Other observations

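Higher in Slc17a6-led than in Gad nuclei were 1 of 24 glutamate receptor genes, 1 of 30 channel genes and 0 of 14 GABA receptor genes tested, beside 0.840% of all genes. Counts of this size do not set these lists apart from all genes. Htr2a, the serotonin receptor gene whose neurons were targeted in fed replicate 3, was at 65.1 CPM in Slc17a6-led and 13.4 CPM in Gad nuclei (log2 fold change 2.18, adjusted p = 0.0032, edgeR). It rested on 25 UMIs, with 43.0, 101.4, 0 and 62.9 CPM in fed replicates 2 and 3 and fasted replicates 1 and 2. In Slc17a7-led nuclei it was at 6.31 CPM. The channel-interacting gene Kcnip1 (1.54), the sulfotransferase gene Hs3st4 (1.68) and the interleukin receptor-like gene Il1rapl2 (2.51) were also higher in Slc17a6-led than in Gad nuclei. Of the 19 Slc17a6-led nuclei 12 came from fasted replicate 2.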
